A study of Homo sapiens with 8 samples.

Results

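Respiratory complex I genes were examined in a genome-wide knockout screen of PC9-Cas9 cells. The members were all targeted genes whose symbol starts with NDUF in the guide table, 45 of 18052 targeted gene names. They comprised 36 subunits of complex I, the 7 assembly factors NDUFAF1 to NDUFAF7, and NDUFA4 with its paralog NDUFA4L2, whose current RefSeq symbols are COXFA4 and COXFA4L2. NDUFA4 is now known as a subunit of cytochrome c oxidase (complex IV) and was therefore kept apart from the complex I subunits. The subunits were divided by place and origin into 7 core subunits of the peripheral arm, 9 accessory subunits of that arm, 19 accessory subunits of the membrane arm, and the acyl carrier protein NDUFAB1. NDUFAF8, an assembly factor, appears in the guide table under its older symbol C17orf89 and is given with the other assembly genes. NDUFB3 was not analysed here.

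Complex I is the entry point of electrons from NADH into the mitochondrial respiratory chain. It has an L shape: the peripheral arm reaches into the matrix, binds NADH through a flavin and passes electrons along iron-sulfur clusters to ubiquinone, and the membrane arm pumps protons. Core subunits carry out catalysis, and the most hydrophobic of them are encoded by mitochondrial DNA, which a nuclear guide library does not target. Accessory subunits surround the core and stabilise it, whereas assembly factors join modules together and then leave the finished enzyme. Cells without complex I depend more on glycolysis, lack part of their capacity to regenerate NAD+, and often proliferate slowly, above all when aspartate or pyruvate is scarce.

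PC9 is a non-small cell lung cancer line with an activating deletion in EGFR. All samples came from PC9 cells selected with blasticidin as a stable Cas9-expressing population, which the methods do not describe as a clone. The cells were infected with TKOv3, a pooled library of single guide RNAs with usually 4 guides to a gene, selected with puromycin for 3 days and given 2 days to recover. Each of 4 groups had 2 libraries. T0 cells were taken when drug was added (0 h), untreated cells after 72 h in DMSO, and treated cells after 72 h in 10 µM erlotinib or 0.1 µM osimertinib, inhibitors of the EGFR kinase. Untreated cultures were passaged on day 1 and the treated ones were not described as passaged. Only live cells were collected on day 3. The labels describe infection in duplicate but do not say whether cultures stayed apart from then on, so p-values measure the spread between these libraries, part of which may be technical.

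A guide's share of the reads was taken as a measure of how common its knockout was among the cells. Libraries held between 32093833 and 39197691 reads, with a median of 445 to 549 reads per guide, and replicates of a group correlated at r between 0.964 and 0.978 over guides. For each gene the level in a library is the median over its guides of log2 CPM (reads scaled to library size), taken relative to the gene's own T0 mean and to the median of 138 non-targeting guides, which match no site in the genome. L2FC is the difference between the mean levels of 2 groups. Standard errors (SE) and adjusted p-values come from limma with the Benjamini-Hochberg procedure over 17761 genes, and a gene was called at an adjusted p under 0.05. Of the 45 members, 44 were tested, with 172 of 174 guides kept. NDUFC2, a membrane arm subunit, had a single guide and was not tested. The reads of that guide were 374 and 448 at T0, 353 and 338 in untreated cells, 287 and 285 in erlotinib and 292 and 393 in osimertinib.

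The choice of reference matters for every comparison with T0. The median L2FC of all genes relative to non-targeting guides was -0.16 in untreated cells against T0, -0.15 in erlotinib and -0.15 in osimertinib, so that most knockouts lay below non-targeting guides by the endpoint. Between drug and untreated cells the same median was 0.02 for erlotinib and 0.01 for osimertinib. Calls relative to all targeting guides are therefore given beside the calls relative to non-targeting guides. Counts at an unadjusted p under 0.05 are given for members or their guides alone. The share of all genes or guides at that threshold is not given, so these counts cannot show an excess of members.

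In untreated cells, knockouts of complex I genes were less abundant after 72 h than at T0, and 3 membrane arm subunits were lowest. NDUFA13, NDUFA11 and NDUFS5 fell by 0.49, 0.47 and 0.46 in L2FC. Relative to non-targeting guides, 24 of 44 members (54.5%) were called lower, beside 47.0% of all genes, and 0 were called higher, beside 0.045%. No member was higher at an unadjusted p under 0.05 or by edgeR, DESeq2 or the methods' empirical test either. The members' median L2FC was -0.20, which is 0.03 below the median of all genes, and 24 of 44 members lay below that median. In 36 of 44 members both untreated libraries were lower than both T0 libraries, beside 79.9% of all genes. Relative to all targeting guides, 3 members were called lower, beside 9.85% of all genes, and 0 higher, beside 1.66%, with 7 lower and 4 higher at an unadjusted p under 0.05 (limma). The share of complex I genes lower than T0 was thus near the background under either reference, and 3 subunits held the lowest values. Leaving out either T0 library or either untreated library lowered both the number of members and the number of all genes called lower. With each library left out in turn, the L2FC stayed between -0.529 and -0.427 for NDUFA11 and between -0.519 and -0.465 for NDUFA13. For NDUFS5 it stayed between -0.554 and -0.354. Relative to all targeting guides, fewer members and fewer of all genes were called lower without T0 replicate 1 or without untreated replicate 1.

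**Figure D1:**
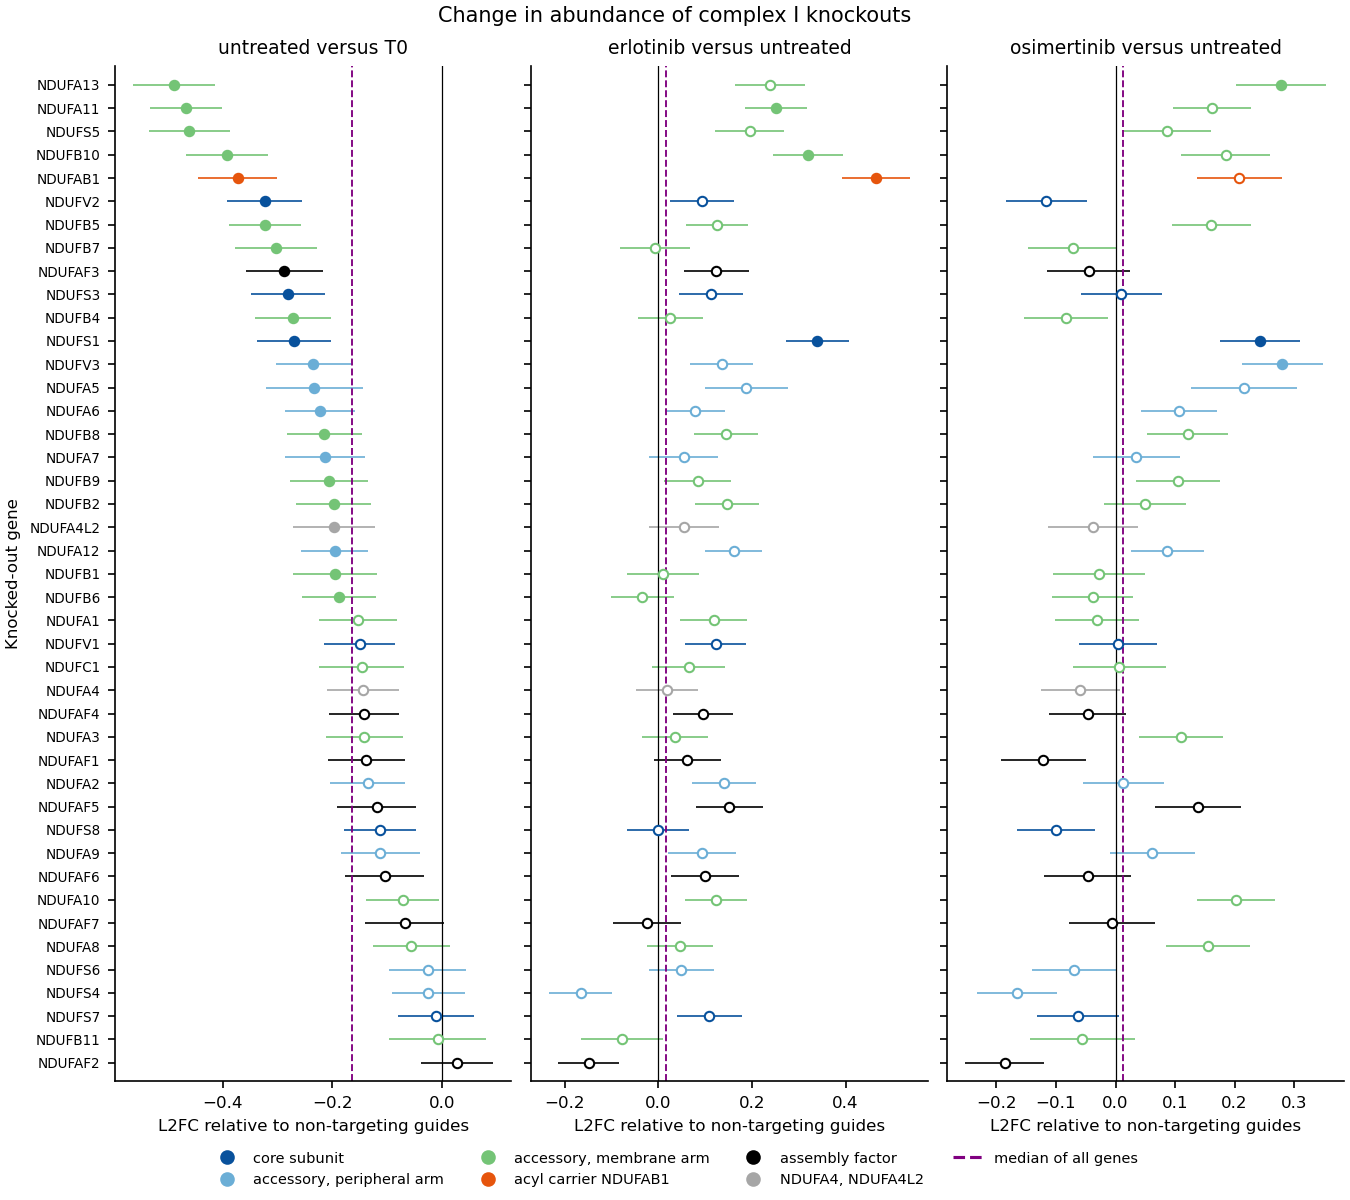
L2FC of NDUF genes relative to non-targeting guides, one gene per line, in untreated versus T0, erlotinib versus untreated and osimertinib versus untreated; bars are standard errors (2 libraries per group), filled points passed the limma test, and the dashed line is the median of all genes. Membrane arm subunits NDUFA13, NDUFA11, NDUFS5 and NDUFB10 lie lowest against T0, and NDUFAB1 lies highest in erlotinib, at 0.46.

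Of the 7 core subunits, 4 (57.1%) were called lower than T0 in untreated cells, beside 47.0% of all genes. NDUFV2, which carries an iron-sulfur cluster in the NADH-oxidising tip, had an L2FC of -0.32 (SE 0.07, n = 2 libraries per group; adjusted p = 0.00107, limma). NDUFS3, which belongs to the quinone-binding part, fell by 0.28 (adjusted p = 0.00307, limma). NDUFS1, the largest core subunit and the carrier of several iron-sulfur clusters, fell by 0.27 (adjusted p = 0.00396, limma). NDUFV1, NDUFS8 and NDUFS7 did not pass the test. NDUFV1, which holds the flavin and binds NADH, was at -0.15 (adjusted p = 0.0648, limma). NDUFS8 and NDUFS7, which carry the last clusters before ubiquinone, were at -0.11 and -0.01. The median of the core subunits was -0.27, and relative to all targeting guides none of the 7 was called in this comparison.

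Single accessory subunits of the membrane arm held the lowest values, and 12 of 18 (66.7%) were called lower than T0, beside 47.0% of all genes. The median of this class was -0.20, beside -0.27 for the core subunits and -0.16 for all genes. NDUFA13, a membrane-spanning subunit at the joint of the arms also known as GRIM-19, stood at 0.03 and -0.03 in the T0 libraries, -0.52 and -0.46 in untreated cells, -0.17 and -0.33 in erlotinib and -0.11 and -0.31 in osimertinib. All its endpoint libraries lay below both T0 libraries, and both untreated libraries lay below every drug-treated library. Its L2FC in untreated cells against T0 was -0.49 (SE 0.07; adjusted p = 4.55e-05, limma).

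NDUFA11, a membrane arm subunit that also contacts complex III in the respirasome, had levels of 0.04 and -0.04 at T0, -0.45 and -0.49 in untreated cells, -0.19 and -0.24 in erlotinib and -0.37 and -0.24 in osimertinib. The groups separated in the same way, with the untreated libraries lowest. Its untreated L2FC was -0.47 (SE 0.07; adjusted p = 1.63e-05, limma), the smallest adjusted p among the members in this comparison. The 4 guides to NDUFA11 lay close together, between -0.56 and -0.43 in L2FC, all below the median of all targeting guides at -0.17.

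NDUFS5, an accessory subunit on the intermembrane space side that belongs to the membrane arm despite its name, was at 0.10 and -0.10 at T0, -0.52 and -0.40 in untreated cells, -0.30 and -0.24 in erlotinib and -0.40 and -0.35 in osimertinib. Every endpoint library was below T0, and the untreated and osimertinib libraries overlapped. Its untreated L2FC was -0.46 (SE 0.07; adjusted p = 7.86e-05, limma). These 3 subunits were the ones called lower relative to all targeting guides, with L2FC of -0.32 for NDUFA13, -0.30 for NDUFA11 and -0.29 for NDUFS5 on that scale (adjusted p = 0.00838, 0.00306 and 0.0107, limma). RefSeq names 7 pseudogenes of NDUFS5.

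NDUFB10, a distal membrane arm subunit with disulfide bonds facing the intermembrane space, was at 0.05 and -0.05 at T0, -0.36 and -0.42 in untreated cells, -0.15 and 0.01 in erlotinib and -0.27 and -0.15 in osimertinib. Its untreated libraries lay below all others, and its untreated L2FC was -0.39 (SE 0.07; adjusted p = 0.000475, limma). NDUFB5, another distal membrane arm subunit, had levels of 0.03 and -0.03 at T0, -0.34 and -0.31 in untreated cells, -0.24 and -0.15 in erlotinib and -0.22 and -0.11 in osimertinib. Its untreated libraries were also the lowest, with an untreated L2FC of -0.32 (SE 0.07; adjusted p = 0.000842, limma).

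NDUFB7, NDUFB4 and NDUFB6, also of the membrane arm, did not share that order. NDUFB7, which faces the intermembrane space, was at 0.04 and -0.04 at T0, -0.34 and -0.27 in untreated cells, -0.34 and -0.28 in erlotinib and -0.44 and -0.31 in osimertinib. Its untreated and erlotinib libraries overlapped almost fully. For NDUFB4 the levels were -0.08 and 0.08 at T0, -0.21 and -0.33 in untreated cells, -0.21 and -0.28 in erlotinib and -0.33 and -0.39 in osimertinib. NDUFB6 had -0.02 and 0.02 at T0, -0.13 and -0.24 in untreated cells, -0.24 and -0.21 in erlotinib and -0.30 and -0.15 in osimertinib. All 3 genes were lower than T0 in all endpoint groups and similar among them, with untreated L2FC of -0.30 for NDUFB7, -0.27 for NDUFB4 and -0.19 for NDUFB6 (adjusted p = 0.00369, 0.00482 and 0.0316, limma). RefSeq names 12 pseudogenes of NDUFB4, and whether its guides also cut such copies was not tested.

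**Figure D2:**
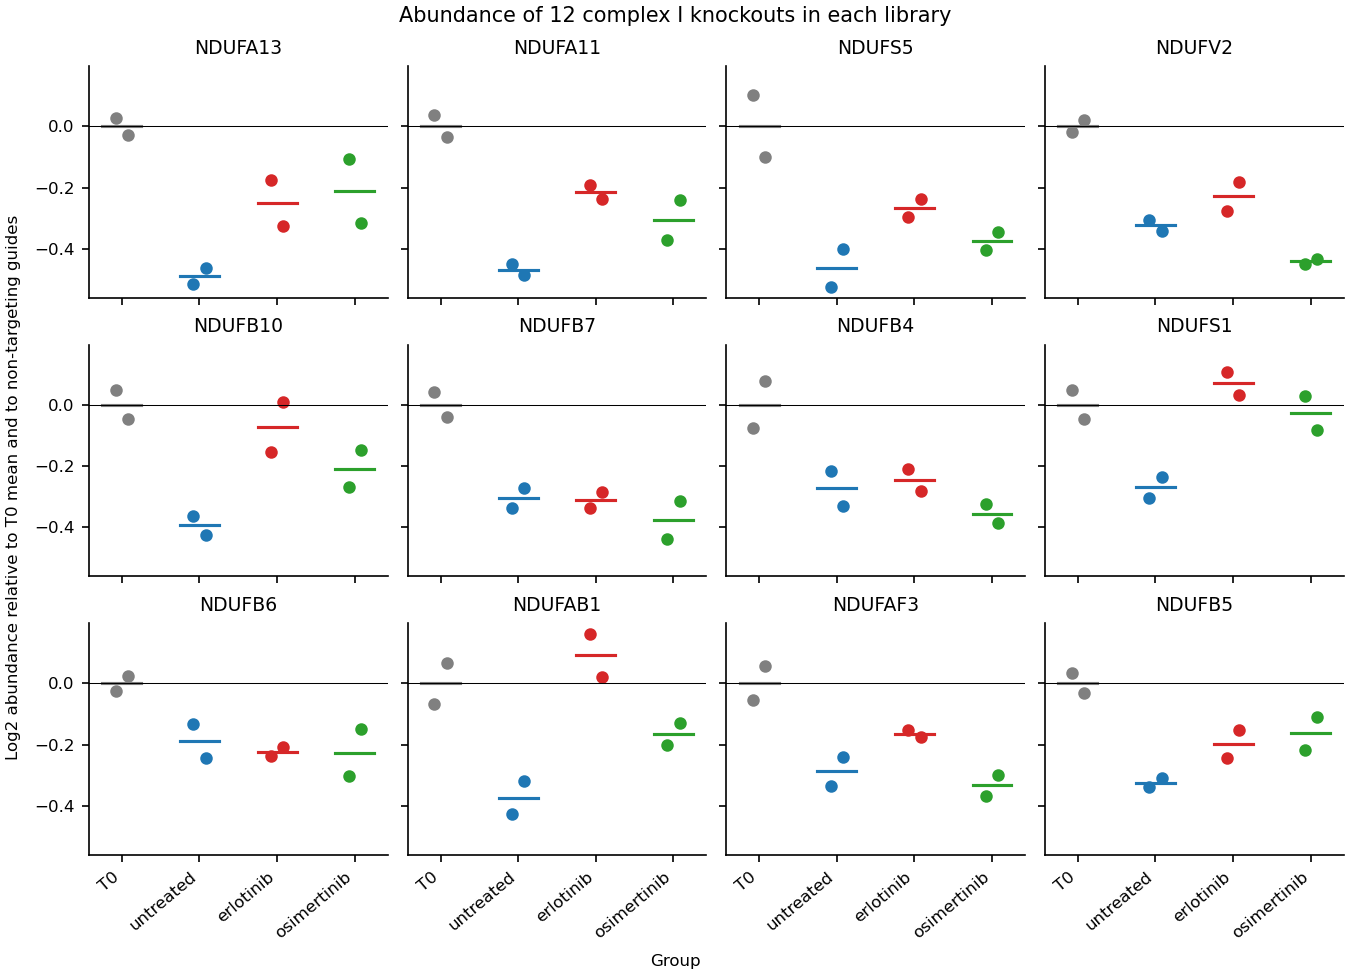
Log2 abundance of 12 complex I knockouts in each library, relative to the gene's T0 mean and to non-targeting guides; points are libraries, bars are means of 2 libraries. NDUFA13, NDUFA11, NDUFB10, NDUFS1 and NDUFAB1 are lowest in untreated cells, NDUFB7 and NDUFB4 are as low in drug-treated cells, and NDUFV2 is lowest in osimertinib, at -0.45 and -0.43.

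NDUFAB1, the mitochondrial acyl carrier protein, sits in complex I as a structural subunit and also serves fatty acid synthesis and, through LYR-motif proteins, iron-sulfur cluster formation. Its levels were -0.07 and 0.07 at T0, -0.43 and -0.32 in untreated cells, 0.16 and 0.02 in erlotinib and -0.20 and -0.13 in osimertinib. The 4 groups were ordered untreated, osimertinib, then T0 and erlotinib, which overlapped. Its untreated L2FC was -0.37 (SE 0.07; adjusted p = 0.000502, limma).

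Among the 9 accessory subunits of the peripheral arm, 5 (55.6%) were called lower than T0 in untreated cells, beside 47.0% of all genes. The called ones lay between -0.23 for NDUFV3 and -0.20 for NDUFA12, and the median of the 9 was -0.20. NDUFS4, whose loss in patients causes Leigh syndrome, was at -0.02 (adjusted p = 0.757, limma). NDUFA5, NDUFA6 and NDUFA7 lay between these values. The remaining called members were NDUFB8, NDUFB9, NDUFB2 and NDUFB1 of the distal membrane arm and NDUFA4L2, with L2FC between -0.21 and -0.20. Of the members that were not called, the lowest were NDUFA1 at -0.15 (adjusted p = 0.082, limma) and NDUFV1, and the highest were NDUFB11 at -0.01 (adjusted p = 0.944, limma) and the assembly factor NDUFAF2 at 0.03 (adjusted p = 0.729, limma).

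The median of the 7 NDUFAF assembly factors lay nearer to non-targeting guides than that of the subunits in untreated cells. Assembly genes with other names did not share this, since 13 of them had a median L2FC of -0.18 and C17orf89 (NDUFAF8) was at -0.50. Of the 7, only NDUFAF3 (14.3%) was called lower than T0, beside 47.0% of all genes. NDUFAF3 acts with NDUFAF4 in building the quinone-binding part of the peripheral arm. Its levels were -0.05 and 0.05 at T0, -0.33 and -0.24 in untreated cells, -0.15 and -0.18 in erlotinib and -0.37 and -0.30 in osimertinib. The untreated and osimertinib libraries overlapped and the erlotinib libraries lay above them, and the untreated L2FC was -0.29 (SE 0.07; adjusted p = 0.00335, limma). NDUFAF4 was at -0.14 and NDUFAF1, which acts in early membrane arm assembly, was also at -0.14. NDUFAF5, which hydroxylates NDUFS7, was at -0.12, NDUFAF6 at -0.10 and NDUFAF7, a methyltransferase, at -0.07. The median of the 7 was -0.12, compared with -0.21 for the 35 subunits and -0.16 for all genes.

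The difference between the median subunit and the median assembly factor was read within each library, where the reference cancels out. It was 0.01 and -0.01 at T0, -0.06 and -0.11 in untreated cells, -0.03 and 0.01 in erlotinib and 0.03 and -0.02 in osimertinib, with a pooled SD between replicates of 0.03. The untreated libraries thus lay lowest, below every other library. No test was made of this difference, because the genes of a class are not replicates. The genes of each class were also chosen with results of these data known. The class medians behind it were -0.23 and -0.21 for subunits in untreated cells and -0.16 and -0.10 for assembly factors. In osimertinib the assembly factors were at -0.21 and -0.11, and the subunits, at -0.18 and -0.13, lay between those values.

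**Figure D3:**
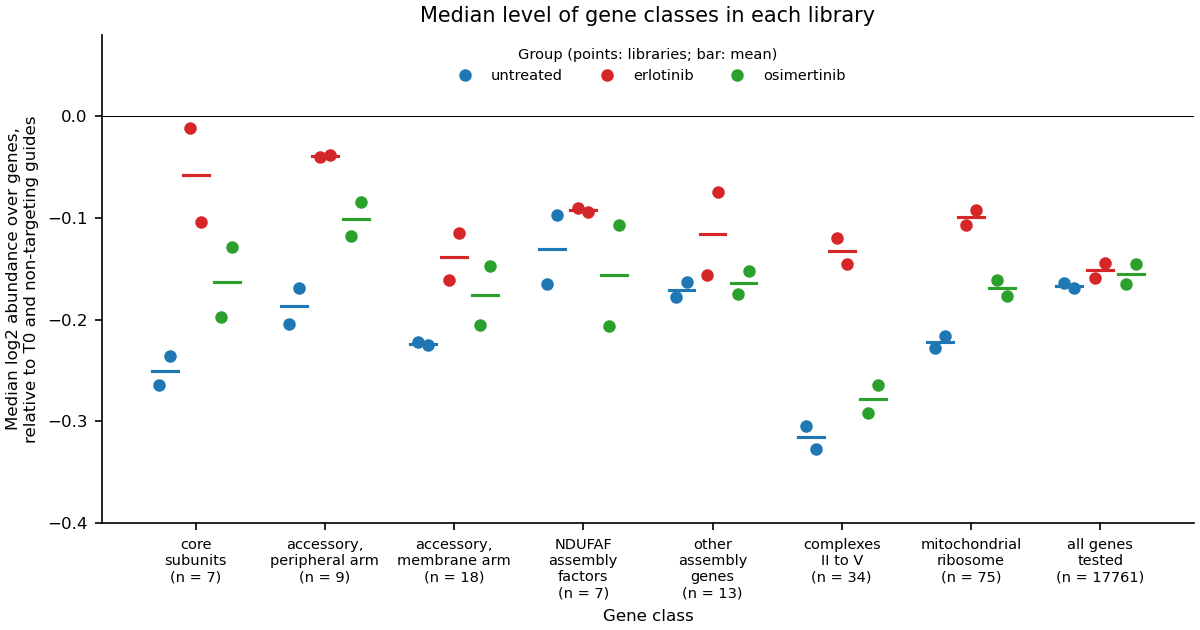
Median level of gene classes in each library, in log2 abundance relative to T0 and to non-targeting guides, for untreated, erlotinib and osimertinib; points are libraries and bars are means of 2 libraries. Core subunits rest at -0.26 and -0.24 in untreated cells and at -0.01 and -0.10 in erlotinib, whereas the median of all genes stays between -0.17 and -0.14 in all libraries shown.

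Erlotinib was compared with untreated cells to ask which knockouts changed in abundance in the presence of drug. All genes called were subunits and all were higher in erlotinib, among them NDUFAB1, NDUFS1, NDUFB10 and NDUFA11. In all, 5 of 44 members (11.4%) were called higher, beside 4.97% of all genes, and 0 members were called lower, beside 2.39%. At an unadjusted p under 0.05, 2 members were lower and 12 higher, with no share of all genes to set beside them. By the other tools, edgeR called 0 members lower and 7 higher, DESeq2 called 1 lower and 7 higher, and the empirical test called 0 lower and 5 higher. Of 17761 genes these tools called 687, 631 and 831 lower and 1327, 889 and 1127 higher. The median L2FC of the members was 0.10 and 36 of 44 lay above the median of all genes. In 27 of 44 members (61.4%) both erlotinib libraries were higher than both untreated libraries, beside 30.4% of all genes.

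NDUFAB1 had the largest difference, 0.46 in L2FC (SE 0.07; adjusted p = 0.000332, limma). Its 4 guides did not behave alike. At T0 the strongest guide had 572 and 661 reads, and it had 380 and 523 in untreated cells, 641 and 601 in erlotinib and 641 and 646 in osimertinib. That guide and another passed edgeR's guide test, at L2FC of 0.63 and 0.50 (adjusted p = 0.000238 and 0.0264, edgeR). Another was at 0.38, and the least abundant, with 35 to 58 reads per library, was at 0.02.

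NDUFS1 rose by 0.34 in L2FC (SE 0.07; adjusted p = 0.00321, limma). Its levels were 0.05 and -0.05 at T0, -0.30 and -0.24 in untreated cells, 0.11 and 0.03 in erlotinib and 0.03 and -0.08 in osimertinib. The untreated libraries were the lowest, and the drug-treated libraries overlapped with T0. All 4 NDUFS1 guides were higher in erlotinib than in untreated cells, between 0.14 and 0.45. NDUFB10 rose by 0.32 and NDUFA11 by 0.25, with guide values between 0.11 and 0.42 and between 0.20 and 0.24 (adjusted p = 0.0116 and 0.0232, limma).

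Each of these 4 genes was also among the 24 called lower than T0 in untreated cells. The comparisons share the untreated libraries, so a low value there enters both, and the shared calls are not separate evidence. Against T0, none of the 4 had an L2FC below -0.22 in erlotinib, and only NDUFA11 was called, at -0.22 (adjusted p = 0.0143, limma). Members without a call included NDUFA13 at 0.24 (adjusted p = 0.0625, limma) and NDUFS5 at 0.20 at the upper end. At the lower end were NDUFS4 at -0.17 (adjusted p = 0.158, limma) and NDUFAF2, an assembly factor related to the subunit NDUFA12, at -0.15 (adjusted p = 0.206, limma). A single NDUFAF2 guide was called lower by itself, at -0.44 (adjusted p = 0.0336, edgeR), with 596 and 590 reads in untreated cells and 336 and 447 in erlotinib, but another was at 0.09.

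The assembly factors gave 0 calls in either direction in erlotinib against untreated cells, with 1 of 7 lower and 1 higher at an unadjusted p under 0.05 (limma). For these 7 genes edgeR and the empirical test also gave 0, and DESeq2 called 1 lower. Their median L2FC was 0.10, beside 0.11 for the subunits. These class medians differed by 0.02. Read within each library, subunits minus assembly factors was -0.06 and -0.11 in untreated cells and -0.03 and 0.01 in erlotinib. The SD of 0.03 between replicates belongs to that within-library difference, so it is no scale for the 0.02. When all targeting guides were the reference, 4 members were called higher, beside 4.19% of all genes, and 0 lower, beside 2.91%, with 2 lower and 8 higher at an unadjusted p under 0.05 (limma). With that reference the members called were NDUFAB1, NDUFS1, NDUFB10 and NDUFA11.

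The erlotinib calls rest on few libraries. Leaving out either untreated library or either erlotinib library lowered both the number of members and the number of all genes called higher. NDUFAB1 was called in all 8 omissions, with L2FC between 0.38 and 0.53 and an adjusted p of at most 0.0191 (limma). NDUFS1 was lost without untreated replicate 1 or erlotinib replicate 1 (adjusted p up to 0.0699, limma) and NDUFB10 without untreated replicate 2 or erlotinib replicate 2 (up to 0.161). NDUFA11 was lost without any of those 4 libraries (up to 0.177).

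Osimertinib was compared with untreated cells in the same way and 3 of 44 members were called higher, beside 5.53% of all genes. None was called lower, beside 4.97%. At an unadjusted p under 0.05, 2 members were lower and 11 higher, and edgeR, DESeq2 and the empirical test called 0 lower and 5, 4 and 4 higher. Of 17761 genes these tools called 1277, 1161 and 835 lower and 1747, 1167 and 811 higher. In 15 of 44 members (34.1%) both osimertinib libraries were higher than both untreated libraries, beside 28.6% of all genes. The called genes were NDUFV3, an accessory subunit next to the flavin site, at 0.28, NDUFA13 at 0.28 and NDUFS1 at 0.24 (adjusted p = 0.0126, 0.0228 and 0.0257, limma; SE 0.07 for each). NDUFV3 had levels of -0.02 and 0.02 at T0, -0.25 and -0.22 in untreated cells, -0.16 and -0.04 in erlotinib and 0.10 and -0.01 in osimertinib. Its osimertinib libraries were above both its untreated and both its erlotinib libraries.

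The highest members without a call in osimertinib were NDUFA5 at 0.22 and NDUFAB1 at 0.21 (adjusted p = 0.133 and 0.0736, limma), and the lowest were NDUFAF2 at -0.19 and NDUFS4 at -0.16 (adjusted p = 0.0831 and 0.13, limma). NDUFA5, an accessory subunit of the peripheral arm, has 12 pseudogenes named in RefSeq. No assembly factor was called in either direction (limma), 1 of 7 was lower and 0 higher at an unadjusted p under 0.05, and edgeR, DESeq2 and the empirical test called 0. Their median L2FC was -0.05, while the subunits were at 0.06 and all genes at 0.01. The same 3 members were called higher relative to all targeting guides, beside 5.02% of all genes, and 0 were called lower, beside 5.75%, with 2 lower and 11 higher at an unadjusted p under 0.05 (limma). All 3 calls were lost without untreated replicate 1, without untreated replicate 2 or without osimertinib replicate 1 in turn, with adjusted p up to 0.0987 for NDUFV3, 0.261 for NDUFA13 and 0.18 for NDUFS1 (limma).

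Comparing each drug with T0 takes the untreated cultures out of the contrast. The lowest member was NDUFB7 of the membrane arm in erlotinib and the core subunit NDUFV2 in osimertinib. In erlotinib, 9 of 44 members (20.5%) were called lower than T0, beside 41.5% of all genes, and 0 higher, beside 0.315%. At an unadjusted p under 0.05 none was higher, edgeR and the empirical test called 0 higher, and DESeq2, whose size factors take all genes as reference, called 6 higher. DESeq2 called 917 of 17761 genes higher. The 9 were NDUFB7 at -0.31, NDUFS5 at -0.27, NDUFA13 at -0.25, NDUFB4 at -0.24, NDUFV2 at -0.23, NDUFB6 at -0.22, NDUFA11 at -0.22, NDUFB5 at -0.20 and NDUFS4 at -0.19. Of these, 7 belong to the membrane arm, with NDUFV2 a core and NDUFS4 an accessory subunit of the peripheral arm. The membrane arm is the largest class, and 7 of its 18 genes (38.9%) were called, beside 41.5% of all genes. Its median was -0.11, beside -0.15 for all genes. The adjusted p was lowest for NDUFB7, at 0.0032, and highest for NDUFS4, at 0.0296 (limma). NDUFB1 at -0.18 and NDUFS3 at -0.17 were the lowest without a call, and NDUFS7 at 0.10 and NDUFAB1 at 0.09 the highest.

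The members' median in erlotinib against T0 was -0.09, above the median of all genes by 0.06, and 31 of 44 members lay above that median. Relative to all targeting guides the direction of the calls turned: 0 members were called lower, beside 10.6% of all genes, and 4 were called higher, beside 3.32% (1 lower and 8 higher at an unadjusted p under 0.05, limma). These were NDUFS7 at 0.25, NDUFAB1 at 0.25, NDUFS1 at 0.22 and NDUFA10, an accessory subunit of the membrane arm, at 0.21 (adjusted p = 0.0188, 0.0294, 0.0331 and 0.0445, limma). Relative to non-targeting guides the L2FC of these 4 genes was between 0.05 and 0.10 with no call. Fewer members, and fewer of all genes, were called higher relative to all targeting guides without either T0 library or either erlotinib library. Relative to non-targeting guides, fewer members and fewer of all genes were called lower without either T0 library or without erlotinib replicate 1.

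In osimertinib, 18 of 44 members (40.9%) were called lower than T0, beside 44.5% of all genes, and 0 higher, beside 1.06%. None was higher at an unadjusted p under 0.05, by edgeR or by the empirical test, and DESeq2 called 5 higher, beside 1994 of 17761 genes. NDUFV2 had the lowest value. Its levels were -0.02 and 0.02 at T0, -0.31 and -0.34 in untreated cells, -0.28 and -0.18 in erlotinib and -0.45 and -0.43 in osimertinib, so that the osimertinib libraries were below all others and the erlotinib libraries above the untreated ones. Its L2FC against T0 was -0.44 (SE 0.07; adjusted p = 3.91e-05, limma). NDUFB7 and NDUFS5 were both at -0.38, NDUFB4 at -0.35, NDUFA11 at -0.31 and NDUFS3 at -0.27 (adjusted p between 0.000448 and 0.00324, limma). NDUFA4L2 at -0.24, NDUFB6 at -0.23, NDUFB1 at -0.22 and NDUFS8 at -0.21 were also called, as were NDUFA13, NDUFB10, NDUFA4, NDUFS4 and NDUFA1, between -0.21 and -0.18.

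In osimertinib against T0, 3 of 7 assembly factors (42.9%) were called lower, beside 44.5% of all genes, and relative to all targeting guides 0 of the 7 were. NDUFAF3 was at -0.33 (adjusted p = 0.000835, limma), NDUFAF1 at -0.26 (adjusted p = 0.00596, limma) and NDUFAF4 at -0.19 (adjusted p = 0.0222, limma). NDUFAF2, NDUFAF6 and NDUFAF7 were at -0.16, -0.15 and -0.07, and NDUFAF5 at 0.02, none of them called. The median of the assembly factors was -0.16, beside -0.15 for the subunits and -0.15 for all genes. The lowest members without a call were NDUFA7 at -0.18 and NDUFAB1 at -0.17. The highest were NDUFA10 at 0.13 and NDUFA8, on the intermembrane space side of the membrane arm, at 0.10.

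Relative to all targeting guides, 3 members were called lower in osimertinib than at T0, beside 15.3% of all genes, and 3 higher, beside 8.31%. NDUFV2 at -0.28, NDUFB7 at -0.21 and NDUFS5 at -0.21 were lower (adjusted p = 0.00489, 0.0401 and 0.0408, limma). NDUFA10 at 0.29, NDUFA8 at 0.26 and NDUFV3 at 0.21 were higher (adjusted p = 0.00331, 0.00867 and 0.0348, limma). No assembly factor was called on this scale in any comparison (limma), with at most 1 of 7 lower and at most 3 higher at an unadjusted p under 0.05. Fewer members, and fewer of all genes, were called lower on this scale without T0 replicate 1, T0 replicate 2 or osimertinib replicate 1. Leaving out erlotinib replicate 2 also lowered the number of members called lower, while the number of all genes hardly changed. Without T0 replicate 2, fewer members and fewer of all genes were also called higher. Relative to non-targeting guides, fewer members and fewer of all genes were called lower without either T0 library or without osimertinib replicate 1.

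The drugs were also set against each other at their given doses, which differ. No complex I member was called between erlotinib and osimertinib (limma), beside 1.12% of all genes called higher and 0.253% called lower in erlotinib. At an unadjusted p under 0.05, 7 members were higher and 1 lower. Neither edgeR nor DESeq2 called any, and the empirical test called NDUFV2 higher. With all targeting guides as reference limma also called none, beside 1.05% of all genes higher and 0.321% lower, with 6 members higher and 1 lower at an unadjusted p under 0.05. In 20 of 44 members (45.5%) both erlotinib libraries were higher than both osimertinib libraries, beside 22.7% of all genes. The members with the highest L2FC were NDUFAB1 at 0.26 (SE 0.07; adjusted p = 0.0849, limma) and NDUFV2 at 0.21 (SE 0.07; adjusted p = 0.148, limma). The lowest were NDUFV3 at -0.14 and NDUFA8 at -0.11 (adjusted p = 0.371 and 0.542, limma). The assembly factor median was 0.14 and the subunit median 0.06, with 0 assembly factors called and 3 of 7 higher at an unadjusted p under 0.05. NDUFAB1 was called in erlotinib but not in osimertinib against untreated cells, and the direct test between the drugs did not pass the threshold.

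Single guides gave few calls by edgeR, whose guide test takes all guides as its reference through TMM scaling. In untreated cells against T0, 6 of 172 member guides were called lower, beside 5.92% of all guides, and 0 higher, beside 1.2%. At an unadjusted p under 0.05 these counts were 16 and 12. These were guides to NDUFB7, NDUFV2, NDUFB4, NDUFA6, NDUFAB1 and NDUFB8, with L2FC relative to non-targeting guides between -0.89 and -0.56, and no gene had more than 1. Guides to the same gene spread unequally. The 4 guides to NDUFV2 were at -0.73, -0.55, -0.14 and 0.02, and those to NDUFB7 at -0.89, -0.51, -0.26 and 0.02. The 4 guides to NDUFS1 were between -0.31 and -0.21, those to NDUFAF3 between -0.34 and -0.24, and those to NDUFA13 between -0.58 and -0.41. The gene values of NDUFV2 and NDUFB7 therefore rest on part of their guides.

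**Figure D4:**
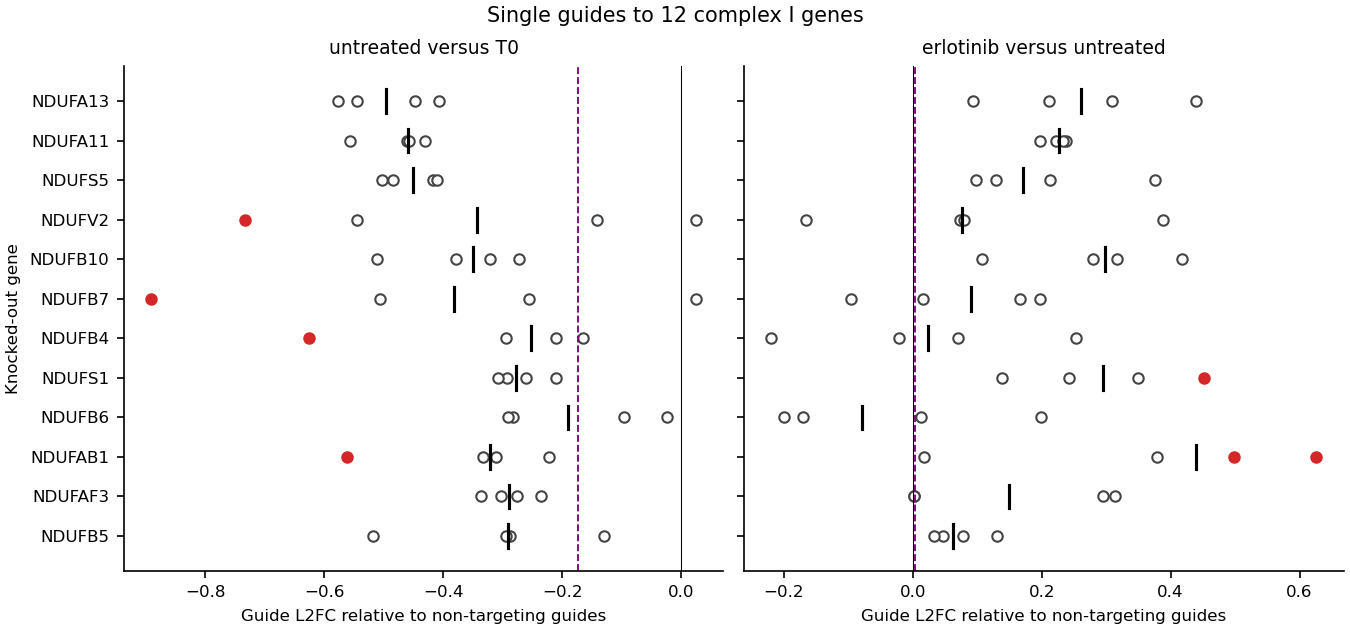
L2FC of single guides to 12 complex I genes relative to non-targeting guides, in untreated versus T0 and erlotinib versus untreated; filled points passed edgeR's guide test, vertical bars are medians of the gene's guides and the dashed line is the median of all targeting guides. The guides to NDUFA11 lie between -0.56 and -0.43 against T0, and those to NDUFB7 spread from -0.89 to 0.02.

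In erlotinib against untreated cells, 3 member guides were called higher, beside 1.76% of all guides, and 1 lower, beside 1.05%. The higher ones were the pair to NDUFAB1 and 1 to NDUFS1, and the lower one was to NDUFAF2. In osimertinib against untreated cells 5 were called higher, beside 2.41%, and 1 lower, beside 2.32%. The same NDUFAF2 guide was the lower one, at -0.42, and the higher ones targeted NDUFA13, NDUFA6, NDUFAB1, NDUFB2 and NDUFS1. Between the drugs no member guide was called, beside 0.218% of all guides higher and 0.111% lower in erlotinib, and 6 were lower and 17 higher in erlotinib at an unadjusted p under 0.05. Against T0, 1 member guide was lower and 4 were higher in erlotinib, beside 5.37% and 1.38% of all guides, and 8 were lower and 7 higher in osimertinib, beside 8.97% and 4.59%.

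Other genes of complex I assembly were set beside the NDUFAF genes. Of 13 such genes, 7 (53.8%) were called lower than T0 in untreated cells, beside 47.0% of all genes, and their median L2FC of -0.18 was close to the -0.16 of all genes. Relative to T0, 5 of the 13 (38.5%) were called lower in erlotinib and 7 (53.8%) in osimertinib, beside 41.5% and 44.5% of all genes. The lowest was C17orf89, whose product NDUFAF8 stabilises NDUFAF5, at -0.50 (SE 0.07; adjusted p = 1.08e-05, limma), below every NDUF-named gene in that comparison. Its partner NDUFAF5 was at -0.12. Next came LYRM2, a LYR-motif protein that binds the acyl carrier protein, at -0.36 (SE 0.06; adjusted p = 0.000163, limma). In erlotinib against untreated cells 2 of the 13 (15.4%) were called higher and 1 (7.69%) lower, beside 4.97% and 2.39% of all genes. These were named after their values were seen: FOXRED1, an assembly factor with a flavin, at 0.30 (adjusted p = 0.00657, limma), C17orf89 at 0.23 (adjusted p = 0.0476, limma), and COA1, which acts in membrane arm assembly, at -0.22 (adjusted p = 0.0388, limma). In osimertinib against untreated cells FOXRED1, at 0.22 (adjusted p = 0.0372, limma), was the 1 gene of the 13 called higher, and 0 were called lower.

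Genes of the other respiratory complexes and of the mitochondrial ribosome give the scale of these changes. In untreated cells against T0, 28 of 34 genes of complexes II to V (82.4%) were called lower, with a median L2FC of -0.31. Of 75 mitochondrial ribosomal proteins, 45 (60.0%) were called lower, with a median of -0.22, beside 47.0% of all genes. In erlotinib against untreated cells, 13 of the 34 (38.2%) and 8 of the 75 (10.7%) were called higher, beside 4.97% of all genes. Their medians were 0.16 and 0.13. In 67.6% and 68.0% of these genes both erlotinib libraries were higher than both untreated libraries. That share was 61.4% of complex I members and 30.4% of all genes. In osimertinib 4 (11.8%) and 3 (4.0%) were called higher, beside 5.53% of all genes, with medians of 0.04 for each. The complex I subunits, at -0.21, 0.11 and 0.06 in these comparisons, lay closer to all genes against T0 than complexes II to V did. For comparison, cytosolic ribosomal proteins, which nearly every dividing cell needs, had a median of -0.77 in untreated cells. Of these, 53 of 59 (89.8%) were called lower, beside 47.0% of all genes. The difference between these lists was not tested.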

How the data were processed

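Guide RNAs in genomic DNA of PC9-Cas9 cells were sequenced in 8 libraries, 2 in each of 4 groups taken from the sample labels. The deposited values are counts of reads for each guide in each library, not normalized. The authors amplified guides by 2 successive PCRs, with no molecular identifier named, and mapped reads to the library with at most 1 mismatch. The methods name Bowtie2 as the aligner, whereas Bowtie 1.3.1 is named in the submitters' processing notes. PCR copies are not independent, so read depth shows counting error alone.

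There were 71090 guides, of which 142 were non-targeting. In 50 gene names a spreadsheet had made the symbol an amount of money. Of these, 49 were restored, and 1 with 4 guides was left out. The 5% of guides with the fewest reads on average (normalized mean up to 45.86) were removed, which left 67531. Log2 CPM values (TMM, prior count 1) were centred on each guide's mean over libraries, summarised by the median over guides for genes with 2 or more of them left, and taken relative to the median of non-targeting guides in that library. That median had a standard error of 0.0118 to 0.0169 between groups. The tools were limma 3.58.1 (lmFit and eBayes with a trend, all 8 libraries) for genes and edgeR 4.0.16 (quasi-likelihood F-test, 4 residual degrees of freedom) for guides in R 4.3.3, two-sided, with Benjamini-Hochberg adjustment over all genes or guides and a threshold of 0.05. In data simulated for erlotinib against untreated cells with 17761 genes, 100% of genes changed by an L2FC of 0.5 or 1 were recovered, and 66.5% and 100% of their guides. All guides of a changed gene were given the same change. Smaller changes were not simulated, and the largest absolute L2FC of a member was 0.489, so recovery at the members' size is not known. Alternatives were other references, filters, prior counts and gene summaries, DESeq2 1.42.0 and edgeR on summed counts, the methods' empirical test with 10000 draws of non-targeting guides, a replicate block and leaving out each library. Replicate counts differed beyond counting error (chi-square per degree of freedom 2.66 to 5.07), so each library was counted as a sample of its own.

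The members and gene lists were chosen with earlier results of these data known. In each comparison the called members were named (the 12 with the largest absolute L2FC if more), with the 2 highest and 2 lowest that were not called. Levels in every library were given for the 12 members called in the most comparisons. The values of 1 member are not reported here by name. Guide sequences and genome positions were not used here.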

Additional observations from a re-analysis of the deposited data

How the results depend on the processing

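Counts of members called against T0 depended on the reference, while those between drug and untreated cells did so little. The numbers called lower in untreated cells, erlotinib and osimertinib against T0 were 24, 9 and 18 relative to non-targeting guides, beside 47.0%, 41.5% and 44.5% of all genes. They were 3, 0 and 3 relative to all targeting guides (9.85%, 10.6% and 15.3% of all genes). With TMM scaling alone they were also 3, 0 and 3, beside 1716, 1856 and 2683 of 17761 genes. With DESeq2 they were 4, 0 and 4, beside 1903, 2046 and 2960 genes. The numbers called higher in erlotinib and osimertinib against T0 were 0 in the analysis reported. They were 4 and 3 relative to all targeting guides (3.32% and 8.31% of all genes) and with TMM scaling alone (617 and 1531 genes). With DESeq2 they were 6 and 5, beside 917 and 1994 genes. By construction these alternatives move the median of all genes towards 0. DESeq2 also called 1 member lower in erlotinib against untreated cells, and it turned the sign of NDUFA5 in untreated cells against T0 (0.015) and of NDUFA4 in osimertinib against T0 (0.004). With edgeR on summed counts, 5 members were called higher in osimertinib against untreated cells and 14 lower in erlotinib against T0. Of 17761 genes, 1747 and 9363 were called there. The empirical test called 1 member higher in erlotinib against osimertinib, beside 378 of 17761 genes. With the mean over guides, the subunit minus assembly factor difference in osimertinib against untreated cells was 0.079 in place of 0.109. Without a filter on low counts, 0 member guides in place of 1 were called lower in erlotinib against T0. The cause of these differences was not tested. Of 59 member calls, 13 kept their side of the threshold relative to all targeting guides, 15 with DESeq2 and 59 with a prior count of 5.

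Replicate numbers showed no pairing of the samples. The difference between replicate 1 and replicate 2 over genes correlated between groups at r between -0.004 and 0.016. The fit with a replicate block gave 24 members lower in untreated cells against T0, 6 higher in erlotinib and 3 higher in osimertinib against untreated cells, and 10 and 19 lower in erlotinib and osimertinib against T0, and it kept all 59 calls. For all genes the counts in the same order were 8258, 887, 960, 7296 and 7870 of 17761.

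With each library left out in turn, the count of members called lower ranged from 13 to 25 in untreated cells, 2 to 10 in erlotinib and 9 to 20 in osimertinib against T0, and the count called higher from 2 to 6 in erlotinib and 0 to 4 in osimertinib against untreated cells and 0 to 1 in osimertinib against T0. Relative to all targeting guides, the omissions were added after the data were seen. There, fewer members and fewer of all genes were called lower in untreated cells against T0 without T0 replicate 1 or untreated replicate 1. Fewer of both were called higher in erlotinib against T0 without either T0 library or either erlotinib library. The same held for each drug against untreated cells without either untreated library. Without untreated replicate 1 or erlotinib replicate 1, more members but fewer of all genes were called higher in untreated cells against T0. Subunits minus assembly factors ranged from -0.105 to -0.072 in untreated cells, -0.064 to -0.011 in erlotinib and -0.013 to 0.046 in osimertinib against T0, from -0.014 to 0.073 in erlotinib and 0.076 to 0.171 in osimertinib against untreated cells, and from -0.086 to -0.013 between the drugs.

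With 2 libraries per group and SEs of 0.06 to 0.09, the smallest member change called was -0.18, for NDUFA1 in osimertinib against T0.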
